A study of Homo sapiens with 12 samples.

Results

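Aquaporins are membrane channels, and the 6 aquaporin genes described here, AQP1, AQP3, AQP7, AQP8, AQP9 and AQP11, were taken by name from the 57500 genes counted in each library. AQP3 was picked because its level rose when thiosulfate sulfurtransferase (TST) was overexpressed, so its values in that contrast are given as a description with no test. The cells were HepG2, a human hepatocellular carcinoma line. Bulk RNA was sequenced from 12 libraries in 3 groups of 4. The WT group was wild-type HepG2, and the labels and methods do not say that it carried an empty vector. The shTST group carried a purchased short hairpin RNA plasmid against TST. The overTST group carried a codon-optimised TST in a lentiviral vector with a CMV promoter and a blasticidin marker. The methods describe lentiviral particles made with either plasmid, and blasticidin to select the transduced cells. All 3 groups were kept for 24 h in normal medium with 0.4 mM glycine before RNA extraction. Vector delivery and selection cannot be told apart from the change in TST.

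Aquaporins form small gene families of channels that let water cross membranes along osmotic gradients. The aquaglyceroporins AQP3, AQP7 and AQP9 also pass glycerol, and AQP9 is known as the glycerol channel of the hepatocyte, where it supplies glycerol for glucose synthesis. AQP3 and AQP8 are known to pass hydrogen peroxide, and AQP11 is a distant member found in the endoplasmic reticulum.

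Library totals ranged from 28866175 to 45120508 counts in WT, from 27527854 to 33865386 in shTST and from 22911380 to 27414142 in overTST. TST was 49.0 ± 2.59 CPM (counts scaled to library size; mean ± SD, n = 4) in WT, 34.1 ± 1.62 in shTST and 57.9 ± 4.90 in overTST. TST fell by 0.52 on the log2 scale in shTST (adjusted p = 3.2e-06, edgeR) and rose by 0.24 in overTST (adjusted p = 0.0038). WT (47.2 to 52.8 CPM) and overTST (51.8 to 62.1 CPM) overlapped. Over all genes tested, the log2 fold change in overTST against WT fell with exonic length (Spearman's rho −0.40), and the TST value was not corrected for length. In TPM (counts per exonic length, scaled to their library sum), TST was 71.3 ± 8.03 in WT and 71.5 ± 6.23 in overTST. On that scale no rise of TST was seen. The TST reads were assigned to the native gene, and reads of the codon-optimised transgene need not be among them. All 8 hepatocyte markers exceeded 1 CPM in each group, with summed levels of 21361 to 28526 CPM over the libraries. Of the 5 cholangiocyte markers 3 exceeded 1 CPM in each group, and the summed level of the 3 squamous markers was at most 0.134 CPM in any library. The share of counts from mitochondrial genes was 6.91% to 11.98% in WT, 6.84% to 8.65% in shTST and 10.8% to 11.7% in overTST. WT overlapped both other groups, which did not overlap each other, and the part of this share in the results was not tested.

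The promoters of the 2 members that differed between groups, AQP3 and AQP8, and of AQP7, which lies beside AQP3, show how different the start regions of these genes are. They run from 250 bases before to 50 bases after the RefSeq start (GRCh38.p14), 5′ to 3′ on the gene's strand. RefSeq windows were found for 5 of the 6 members. Capitals mark the TATA box (TATAAA) and the GC box (GGGCGG), each searched on both strands. The windows are chr9:33447544-33447843 on the minus strand for AQP3, chr9:33402519-33402818 on the minus strand for AQP7 and chr16:25216697-25216996 on the plus strand for AQP8.
AQP3: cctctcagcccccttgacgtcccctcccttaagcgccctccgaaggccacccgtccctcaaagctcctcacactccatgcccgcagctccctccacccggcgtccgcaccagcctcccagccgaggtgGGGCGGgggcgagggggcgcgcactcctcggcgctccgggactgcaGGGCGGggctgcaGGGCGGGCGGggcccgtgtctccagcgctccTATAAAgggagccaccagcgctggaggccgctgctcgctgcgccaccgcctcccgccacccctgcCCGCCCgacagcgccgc
AQP7: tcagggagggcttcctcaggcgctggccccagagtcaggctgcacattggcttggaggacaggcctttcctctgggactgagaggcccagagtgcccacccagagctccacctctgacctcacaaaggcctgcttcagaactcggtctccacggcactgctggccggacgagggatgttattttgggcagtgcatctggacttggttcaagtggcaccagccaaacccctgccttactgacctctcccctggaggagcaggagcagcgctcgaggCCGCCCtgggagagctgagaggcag
AQP8: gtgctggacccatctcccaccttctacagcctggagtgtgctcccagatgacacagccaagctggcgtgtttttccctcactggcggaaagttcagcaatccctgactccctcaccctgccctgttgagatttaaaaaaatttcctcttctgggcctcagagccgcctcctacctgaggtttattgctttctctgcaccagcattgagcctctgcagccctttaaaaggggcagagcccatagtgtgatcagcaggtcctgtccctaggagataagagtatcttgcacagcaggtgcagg
The AQP3 window held a TATA box 32 bases before the start and 5 GC box matches, 2 of which overlapped each other. The AQP7 window held 1 GC box and no TATA box, and the AQP8 window held neither. Of all 35116 RefSeq promoter windows of the same length, 11.5% held TATAAA and 45% held GGGCGG. The windows were 75.3% G and C for AQP3, 62.7% for AQP7 and 53.7% for AQP8. The AQP8 window starts from a transcript whose start is 1216 bases inside the gene as the count files annotate it, and the matches are a description of letters only.

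AQP3 (ENSG00000165272) passes water, glycerol and hydrogen peroxide, and lies at chr9:33441154-33447611 on the minus strand (GRCh38, as the count files give it), with 2928 exonic bases. In WT its counts were 110, 235, 107 and 147 in replicates 1 to 4, or 3.38, 5.16, 3.63 and 4.51 CPM. In shTST the counts were 83, 100, 81 and 76, or 2.97, 3.35, 2.35 and 2.52 CPM. In overTST they were 236, 190, 237 and 189, or 8.80, 8.04, 9.35 and 8.59 CPM. All 4 overTST libraries lay above every other library, and the highest shTST library (3.35 CPM) lay just under the lowest WT library (3.38 CPM). In bulk RNA, fewer cells with the transcript and less of it per cell cannot be told apart. The group means were 4.17 ± 0.817, 2.80 ± 0.451 and 8.69 ± 0.541 CPM. The spread in WT was 19.6% of the mean, against 8.17% from counting alone, and 6.23% against 6.85% in overTST.

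**Figure D1:**
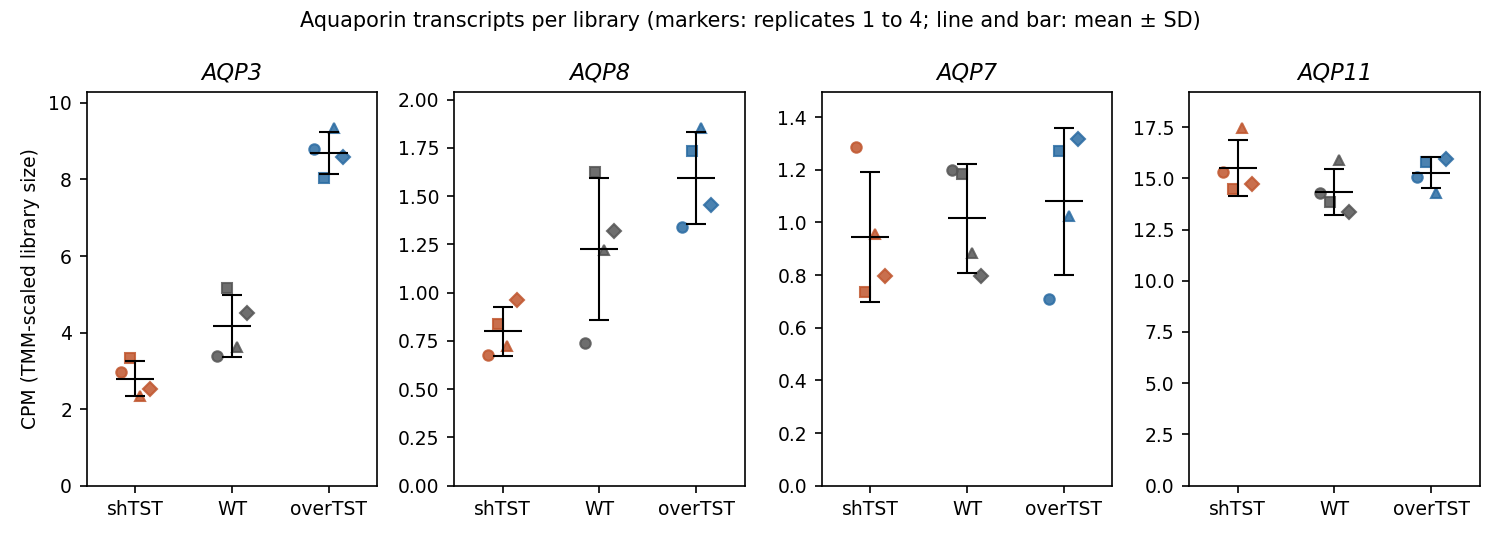
CPM per library (y axes from 0, scaled per gene) of AQP3, AQP8, AQP7 and AQP11 in shTST, WT and overTST, with markers for replicates 1 to 4 and bars for mean ± SD. AQP3 spans 2.35 to 9.35 CPM over the 12 libraries and its 3 groups do not overlap, while those of AQP11 do.

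With TST knocked down, AQP3 was lower in every library, at 0.662 of its WT level (log2 fold change −0.59, SE 0.15, adjusted p = 0.00985, edgeR). This comparison uses the WT libraries that also served the contrast AQP3 was picked from. Of all genes tested 16.1% were called in this comparison, and 9.4% were called lower. Of the 6 members 4 passed the filter on low counts, AQP3 was lower and the other 3 were not called. The groups did not overlap, which held with lower values in shTST for 10.8% of all genes tested. An exact two-sided permutation test of AQP3 over the 8 libraries gave p = 0.0286, the smallest that 4 against 4 allows. Leaving out each library in turn gave −0.69 to −0.46, with adjusted p from 0.00495 to 0.0462, the value nearest 0 being that without WT replicate 2, the deepest library and the highest in AQP3.

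Under TST overexpression AQP3 was 2.06 times its WT level (log2 fold change 1.05, SE 0.12) and 3.12 times its level in shTST (log2 fold change 1.64, SE 0.14). In overTST 14.2% of all genes tested lay wholly above WT and 14.7% wholly above shTST. No test is given for these contrasts, since the first chose the gene and the second shares its overTST libraries. A rise of 2-fold or more was found for 49 genes, or 0.34% of those tested, against WT and for 69 genes, or 0.464%, against shTST. Genes of like exonic length (within 0.25 on the log2 scale) had a median log2 fold change of 0.076 in overTST against WT, and the AQP3 value corrected for length was 0.97. The overTST libraries were the shallowest, and their raw AQP3 counts of 189 to 237 were nevertheless above those of 3 of the 4 WT libraries.

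**Figure D2:**
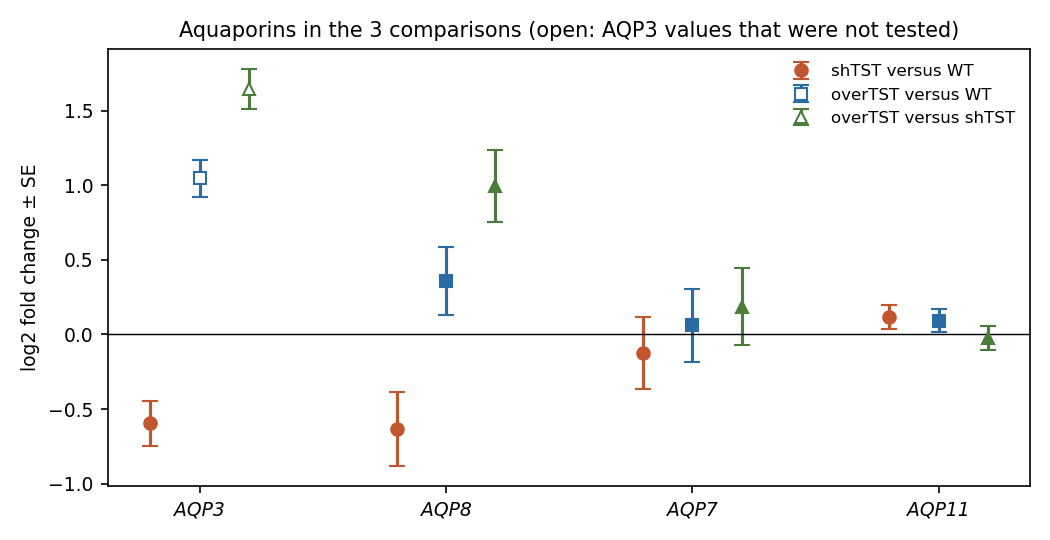
Log2 fold change (y axis, bars ± SE) of AQP3, AQP8, AQP7 and AQP11 in the 3 comparisons, with open symbols for AQP3 values that were not tested. AQP3 is at −0.59, 1.05 and 1.64, and AQP8 at −0.63, 0.36 and 0.99. AQP7 is at −0.12, 0.061 and 0.19, and AQP11 at 0.12, 0.093 and −0.024, with wider bars for AQP7.

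AQP8 (ENSG00000103375), which passes water and hydrogen peroxide, is known in hepatocytes for water flow into bile. It lies at chr16:25215731-25228940 on the plus strand, with 1421 exonic bases. Its counts were 24, 74, 36 and 43 in WT, 19, 25, 25 and 29 in shTST, and 36, 41, 47 and 32 in overTST. In CPM these were 0.738, 1.62, 1.22 and 1.32 in WT, 0.679, 0.837, 0.724 and 0.962 in shTST, and 1.34, 1.74, 1.85 and 1.45 in overTST. WT overlapped both other groups, and the lowest overTST library (1.34 CPM) lay above the highest shTST library (0.962 CPM). Such a separation, higher in overTST than in shTST, held for 14.7% of all genes tested.

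AQP8 was higher in overTST than in shTST, by 0.99 on the log2 scale (SE 0.24, adjusted p = 0.00250, edgeR; exact permutation p = 0.0286, the smallest possible). In that comparison 33% of all genes tested were called and 16.1% of all genes tested were called higher, and of the 3 members tested AQP8 rose and AQP7 and AQP11 did not pass. Against WT, AQP8 differed by −0.63 in shTST (SE 0.25, adjusted p = 0.0863) and by 0.36 in overTST (SE 0.23, adjusted p = 0.236), neither past the threshold. Without WT replicate 1, whose AQP8 value was the lowest of its group, the shTST difference was −0.81 with adjusted p = 0.0240, and without WT replicate 2, the highest of its group, it was −0.44 with adjusted p = 0.310. The median log2 fold change of 655 genes of like length was 0.20 in overTST against WT. Corrected for length the AQP8 difference was 0.18 against WT (adjusted p = 0.589) and 0.85 against shTST (adjusted p = 0.00961).

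AQP7 (ENSG00000165269), the glycerol channel best known from fat cells, lies at chr9:33383179-33402682 on the minus strand, with 5253 exonic bases. Its counts were 39, 54, 26 and 26 in WT, 36, 22, 33 and 24 in shTST and 19, 30, 26 and 29 in overTST. The means were 1.02 ± 0.206, 0.944 ± 0.247 and 1.08 ± 0.279 CPM, and the 3 groups overlapped. Against WT the log2 differences were −0.12 in shTST (95% interval −0.59 to 0.35, adjusted p = 0.776) and 0.061 in overTST (−0.42 to 0.54, adjusted p = 0.874), so changes of this size could not be detected at these counts. Of its 50-base stretches 7.9% also occur in other genes, among them its pseudogene AQP7P1. AQP7P1 held 242 counts over the 12 libraries and differed by −0.048 in shTST (SE 0.36) and 0.33 in overTST (SE 0.31), with adjusted p of 0.944 and 0.436.

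AQP11 (ENSG00000178301), at chr11:77589391-77610355 on the plus strand with 2396 exonic bases, was the most abundant member. Its counts were 464, 630, 469 and 435 in WT, 428, 432, 603 and 444 in shTST and 404, 373, 362 and 351 in overTST. The means were 14.3 ± 1.12, 15.5 ± 1.36 and 15.3 ± 0.762 CPM, with overlapping groups. Its log2 differences were 0.12 in shTST against WT (interval −0.036 to 0.27, adjusted p = 0.332), 0.093 in overTST against WT (−0.063 to 0.25, adjusted p = 0.393) and −0.024 in overTST against shTST (SE 0.079, adjusted p = 0.850). In overTST against WT, where 33.9% of all genes tested were called, 0 of the 3 members tested passed, by edgeR and by DESeq2, and 0 had an unadjusted p under 0.05.

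AQP9 (ENSG00000103569) and AQP1 (ENSG00000240583), a water channel of many epithelia and vessels, were close to zero and did not pass the filter. AQP9, at chr15:58138169-58185911 on the plus strand, had 1, 4, 1 and 0 counts in WT, 4, 3, 1 and 5 in shTST and 1, 0, 2 and 0 in overTST. Exact permutation p-values were 0.114 for shTST against WT, 0.743 for overTST against WT and 0.0857 for overTST against shTST, and no fold is given at or under 3 counts. An exon of AQP9 overlaps ALDH1A2 on the other strand. AQP1, at chr7:30911855-30925516 on the plus strand, had 1 count in WT replicate 3, 1 in shTST replicate 2 and 0 in the other libraries. Its exonic sequence overlaps another gene on the same strand, and 25.1% of its 50-base stretches also occur in another gene. Reads from there may not have been counted for AQP1, which was not tested.

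Levels between genes were compared per exonic length, as RPKM (reads scaled to library size and to exonic kilobases). AQP11 was highest at 5.98 in WT, 6.46 in shTST and 6.37 in overTST. AQP3 followed at 1.42, 0.955 and 2.97, and AQP8 at 0.862, 0.563 and 1.12. AQP7 stood at 0.193, 0.180 and 0.206. The order was the same in all 3 groups, and the spread over libraries of AQP3 and AQP8 in WT (1.15 to 1.76 and 0.519 to 1.14 RPKM) did not overlap. The ratio of AQP11 to AQP3 was 4.35 ± 1.06 in WT, 6.95 ± 1.62 in shTST and 2.16 ± 0.231 in overTST.

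Of the 20 aquaporin genes and pseudogenes in the family list, 4 had no count in any library (AQP2, AQP5, AQP12B and AQP7P5). Over the 12 libraries together AQP6 had 63 counts, AQP4 48, MIP 30, AQP10 26, AQP7B 6 and AQP12A 1. Among pseudogenes AQP7P2 had 110 counts, AQP7P3 2 and AQP7P4 2. Apart from AQP7P1, none of these passed the filter.

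Within 100 kb of AQP3 the files hold 10 other genes, of which 3 passed the filter. NFX1, a zinc finger transcription factor, differed by −0.035 in shTST (adjusted p = 0.690) and by −0.18 in overTST (adjusted p = 0.0266). NOL6, a nucleolar protein of ribosome assembly, was lower in both, by −0.23 (adjusted p = 0.00199) and −0.21 (adjusted p = 0.00495). AQP7, 38472 bases away, is given above. No tested neighbour was called higher in overTST, and the remaining 7 genes had at most 76 counts in all.

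**Figure D3:**
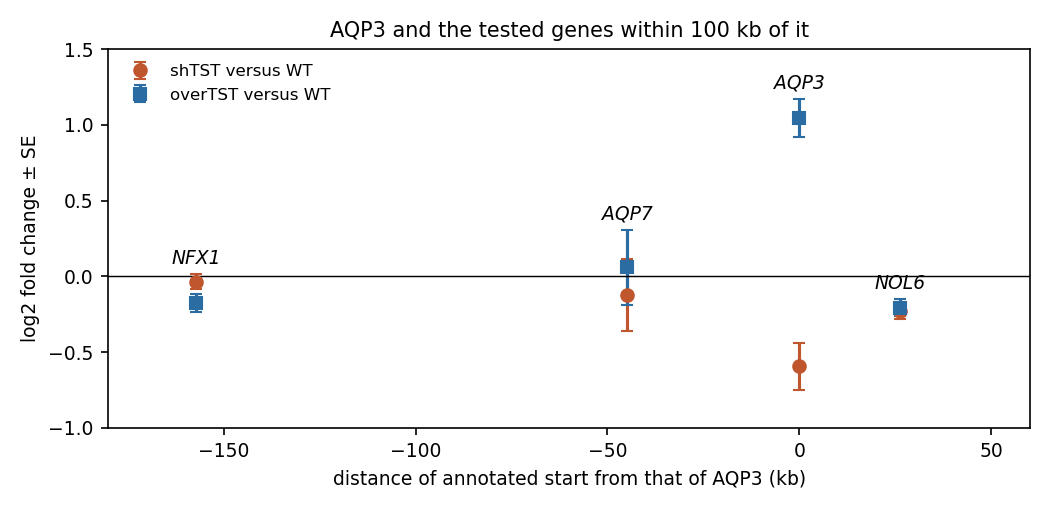
Log2 fold change (y axis, bars ± SE) of AQP3 and the 3 tested genes within 100 kb of it, against the distance in kb of their annotated start from that of AQP3 (x axis), for shTST and overTST against WT. AQP3 stands at −0.59 and 1.05, and NOL6 at −0.23 and −0.21.

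The genes whose log2 CPM followed AQP3 most closely over the 12 libraries were KRT18 (Pearson r = 0.979), SLC35F6 (0.968), LGALS3 (0.968), KRT8 (0.959) and KRT23 (0.959), of 14883 genes. KRT8 and KRT18 are the keratin pair of simple epithelia, and LGALS3 encodes galectin-3. KRT18 averaged 1163 CPM in WT, 1018 in shTST and 1365 in overTST, and LGALS3 38.4, 30.0 and 62.8. The 12 points fall in 3 groups and the genes share the libraries, so these values are a description. Ranked by Spearman's rho, 1 of these 5 stayed among the top 5 (KRT18). Of the members, AQP8 had r = 0.846 with AQP3, AQP7 0.195 and AQP11 −0.139.

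**Figure D4:**
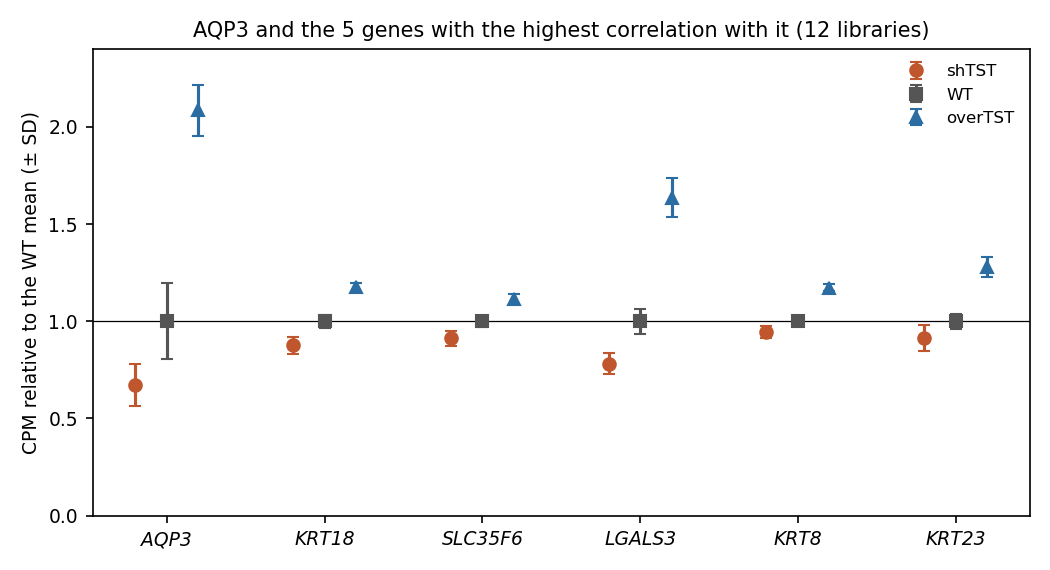
CPM of AQP3 and of the 5 genes most like it, divided by the WT mean of each gene (y axis, linear from 0), as mean ± SD of 4 libraries per group. Each mean is above 1 in overTST and below 1 in shTST, and AQP3 and LGALS3 lie farthest from 1.

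The genes around the channels were read as lists drawn up with earlier results of these data known. Of the 15 genes of glycerol handling 11 were tested. In shTST against WT, 1 was higher and 2 lower, or 27.3% of those tested against 16.1% of all genes, with a list median of −0.014 (all genes 0.0040). GK, the glycerol kinase, was lower by −0.23 (adjusted p = 0.00245), and GPAM, the first acyltransferase of glycerolipid synthesis, was higher by 0.22 (adjusted p = 0.0125). In overTST, 2 were higher and 1 lower (median −0.040), 27.3% against 33.9% of all genes, and leaving out 1 library gave 0 calls (replicate 1 of WT, replicates 2 and 4 of overTST), 1 call (replicate 4 of WT) or 2 (each of the others). PGP, the glycerol-3-phosphate phosphatase, rose by 0.19 (adjusted p = 0.0198) and PNPLA2, the triglyceride lipase, by 0.17 (adjusted p = 0.0280). In overTST against shTST, 4 were higher and 1 lower, 45.5% against 33% of all genes, with GPAM at −0.38 (adjusted p = 3.1e-05) and PNPLA2 at 0.38 (adjusted p = 4.2e-05).

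Of 22 genes of hydrogen peroxide handling 15 were tested. In shTST 1 was called (6.67%, against 16.1% of all genes), ERO1A, an oxidase of the endoplasmic reticulum, at 0.16 (adjusted p = 0.0227), and leaving out 1 library gave 0 calls (replicate 4 of WT, replicates 1 and 4 of shTST) to 3 calls (replicate 3 of WT, replicate 2 of shTST). In overTST against WT 7 were higher and 0 lower (46.7% called, against 33.9% of all genes, with a median of 0.11 against 0.0019), among them GPX3, a secreted glutathione peroxidase, at 0.29 (adjusted p = 2.0e-04) and PRDX5, a peroxiredoxin, at 0.29 (adjusted p = 6.3e-04). With the length correction 3 of the 15 were called. Each alternative called at least 4105 genes, and 14421 were tested with that correction. The share of this list was then below that of all genes. Against shTST 8 were higher and 1 lower, 60% against 33% of all genes, with PRDX5 at 0.36 (adjusted p = 4.6e-05) and GPX3 at 0.34 (adjusted p = 5.0e-05).

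All 20 genes of cell volume and osmotic response were tested. In shTST 1 was higher and 6 lower (median −0.17), and 35% were called against 16.1% of all genes. In overTST 1 was higher and 11 lower (median −0.27), and 60% were called against 33.9% of all genes. SLC12A7 and SLC12A4, potassium chloride cotransporters, had the smallest p in both, at −0.38 and −0.33 in shTST (adjusted p = 2.9e-04 and 3.7e-04) and −0.62 and −0.54 in overTST (adjusted p = 3.6e-07 and 1.0e-06). With the length correction 7 of the 20 were called in overTST. The alternatives called 4105 to 5211 genes, and 14421 were tested with that correction. The share of this list was then closer to that of all genes. Against shTST 7 were lower, or 35% called, which is near the 33% of all genes. The kinases OXSR1 and WNK1 had the smallest p, at −0.29 (adjusted p = 5.1e-04) and −0.22 (adjusted p = 0.00309). In this comparison 3 of the 20 were called with the length correction. Each alternative called at least 4142 genes, and 14883 were tested with that correction, so this share was below that of all genes.

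Of the 12 lipid and insulin regulators, 0 were higher and 2 lower in shTST (median −0.15), or 16.7% called, near the 16.1% of all genes, and 1 was called without shTST replicate 3. The called genes were PPARD at −0.23 (adjusted p = 0.00682) and FOXO1 at −0.30 (adjusted p = 0.0131). Both are transcription factors of lipid and glucose metabolism. In overTST 0 were higher and 8 lower (median −0.21), 66.7% called against 33.9% of all genes, with IRS1, an insulin receptor substrate, at −0.46 (adjusted p = 1.5e-05) and PPARA, the receptor of fatty acid oxidation, at −0.43 (adjusted p = 2.2e-05). Under the 9 alternatives, the length correction among them, 6 to 8 of this list were called in overTST against WT. IRS2, the other insulin receptor substrate, was named after its values were seen, so they are given as a description. It was at 1.43 ± 0.252 CPM in WT and 0.432 ± 0.312 CPM in overTST (log2 fold change −1.75, SE 0.33). Against shTST 1 was higher and 6 lower (58.3% called, against 33% of all genes), PPARA at −0.34 (adjusted p = 1.8e-04) and INSR, the insulin receptor, at −0.25 (adjusted p = 4.5e-04). Of the 4 genes of urea transport and arginase 2 were tested, too few to set a share against that of all genes. ARG2, the mitochondrial arginase, was lower in shTST at −0.28 (adjusted p = 0.0298), a call lost without WT replicate 2 or 3 or without shTST replicate 3 or 4, and was higher in overTST than in shTST by 0.43 (adjusted p = 5.4e-04), and 0 of the 2 were called in overTST against WT by edgeR or DESeq2, with 0 at an unadjusted p under 0.05.

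**Figure D5:**
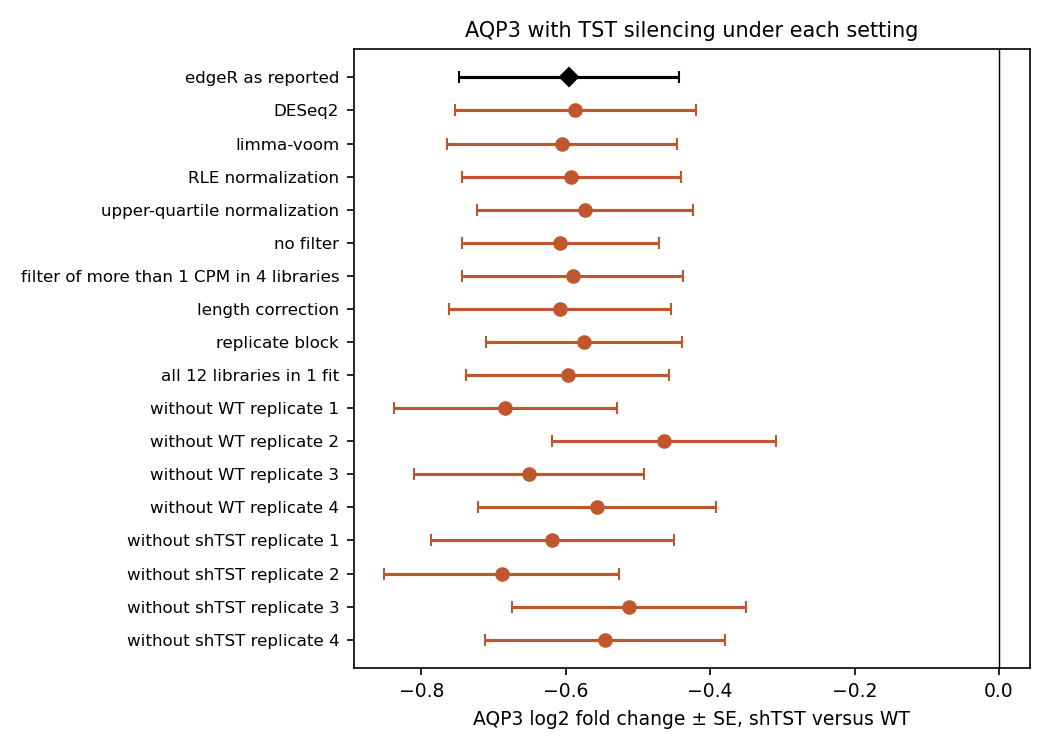
AQP3 log2 fold change in shTST against WT (x axis, bars ± SE) as reported, under 9 alternatives and with each of the 8 libraries left out. All values lie between −0.69 and −0.46, the last without WT replicate 2.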

How the data were processed

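RNA sequencing of 12 HepG2 libraries (3 groups of 4) was analysed from the deposited counts, whole numbers of reads per gene that the authors did not normalise. The submitters' processing notes name Trimmomatic 0.36, STAR 2.5.2b, featureCounts, Subread 1.5.2 and GRCh38, and the use of strand and the annotation release are not given in the sources used here. Gene names were found for 56410 of 57500 gene IDs.

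Counts were modelled with edgeR 4.0.16 (limma 3.58.1, R 4.3.3): filterByExpr, TMM scaling and quasi-likelihood test. A prior count of 2 entered the log2 CPM values and the length correction only. Benjamini-Hochberg adjustment ran over all genes tested, with a call at 0.05. For shTST or overTST against WT, the third group was left out of the model. For overTST against shTST, the model took in all 12 libraries, those of WT included. Standard errors were derived from the F statistic, and 95% intervals are the estimate ± 1.96 of them. CPM values use TMM over the 12 libraries. Single values were tested by an exact two-sided permutation test over libraries. Tested on simulated data with 200 genes changed 2-fold, shTST versus WT (14601 genes) gave 98% recovered and 6.22% false calls. The values were 100% and 4.76% for overTST versus WT (14512 genes), and 98.5% and 6.19% for overTST versus shTST (14754 genes). Low-count genes were not among those changed, and the simulated data had the same spread for every gene and no trend with length. How often differences like those of the genes named here would be found was not tested.

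The genes, lists and tests were chosen with earlier results of these data known. Named are the 6 members, TST, the other family genes, the 2 smallest p among called genes of each list, the genes within 100 kb of AQP3 and the 5 genes closest to it by Pearson's r. IRS2 was named outside this rule. Alternatives were DESeq2 1.42.0, other scalings and filters, a length correction, a replicate block and leaving out each library. The series' design text calls the replicates independent without naming separate cultures, and p-values measure the spread between these samples, which may be technical. Promoters come from RefSeq, and figures from Python 3.11.15 with matplotlib 3.10.9.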

Additional observations from a re-analysis of the deposited data

Results flagged for a closer look

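TST in shTST replicate 3 was 36.5 CPM, while the other 3 shTST libraries lay between 33.0 and 33.5, a gap of 0.84 of the group's range, above Dixon's limit for 4 samples. It was 1 of 17 groups tested, and chance gives about 1 in 20.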

How the results depend on the processing

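AQP3 in shTST against WT was called under all 9 alternatives and all 8 fits without 1 library (log2 fold change −0.61 to −0.57, adjusted p 3.6e-04 to 0.0131, and −0.69 to −0.46). AQP3 in overTST was 0.97 to 1.07 against WT and 1.58 to 1.66 against shTST. AQP8 in overTST against shTST was called in all of its alternatives (adjusted p 6.6e-04 to 0.00961) and without each library (0.00108 to 0.0126). Genes called numbered 2346 in shTST against WT, 2240 to 2980 under the alternatives and 1513 to 2336 without 1 library, the lowest without shTST replicate 1 (the cause was not tested). They numbered 4893 (4105 to 5211, and 3979 to 5263) in overTST against WT and 4907 (4142 to 5232, and 3986 to 5265) against shTST. Upper-quartile scaling moved the share of called genes that were higher in shTST from 41.6% to 52.7%. The number of called genes in the hydrogen peroxide list ranged from 0 to 4 in shTST, and in the glycerol list of overTST from 0 to 3. The replicate numbers showed little pairing of the samples (correlation of deviations −0.053 to 0.080 over 12 pairs, in 5 of which the own number was closest). Between WT and shTST, WT replicates 1, 2 and 3 were closest to their own number, at correlations of 0.032, 0.044 and 0.080. With the replicate block 2980 genes were called in shTST and 5166 in overTST. DESeq2 gave no adjusted p for AQP7 and AQP8 in shTST. AQP8, AQP7, AQP9 and AQP1 have few counts, which limits what could be detected.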
